A study of Mus musculus with 6 samples.

Results

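The comparison described here set damaged hepatocytes (dHeps) cultured with a 3-compound cocktail (3C) against dHeps cultured with the solvent DMSO, in 4 of the 6 RNA-seq libraries of the series. All genes that passed a filter on low counts were compared, which were 19135 of the 52323 genes in the count table. The remaining 33188 were not tested, and 23880 of these had no count in any library. All cells came from mice of the genotype AAV-TBG-Cre:Rosa-LSL-tdTomato that had been injured with carbon tetrachloride (CCl4), a liver toxin. In this tracing system a virus carries Cre under a hepatocyte promoter, and cells that were hepatocytes when the virus was given carry the red label tdTomato. Neither the labels nor the methods say that the cultured cells were sorted on that label. For a hepatocyte-enriching isolation from such mice, the study reports that at its best the large majority of isolated cells carried the label. DMSO, 3C and the fuller 5-compound cocktail (5C) each had 2 libraries, taken on day 16 in serum-free Hepatocyte Maintenance Medium. In 3C, protein kinase D was the target of CID755673 (50 µM) and the kinase ROCK that of GSK429286A (2 µM), and the last compound was 5 µM ETC-1002, also known as bempedoic acid, which in its activated form inhibits ATP citrate lyase and which the study describes as an activator of AMPK. The 5C cocktail held these at the same doses with 5 µM salidroside and 2 µM forskolin, and its values are given only beside those of 3C. Whether replicate libraries stem from separate animals is not given by the labels, so the p-values measure the spread between these libraries. The study says that n in its figures counts separate biological replicates. Its legend for the heatmap of 3C, 5C and DMSO gives no n, so the spread may still be technical.

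Hepatocytes make most plasma proteins, clear ammonia through the urea cycle, make glucose and bile acids, and oxidize foreign compounds with cytochrome P450 enzymes, under a network of transcription factors led by HNF4A. In chronic injury they lose part of this program, while macrophages gather and stellate cells turn into contractile, matrix-producing myofibroblasts. ROCK drives actomyosin contraction, protein kinase D phosphorylates class IIa histone deacetylases, and ATP citrate lyase supplies acetyl-CoA for sterol and fatty acid synthesis.

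The label calls the cells hepatocytes, and the DMSO libraries held hepatocyte RNA beside much macrophage RNA. On the deposited FPKM scale, which corrects for gene length, Alb (albumin) stood at 621 and 515 in DMSO and at 3223 and 3451 in 3C. Lyz2 (lysozyme of macrophages and other myeloid cells) stood at 4262 and 4135 FPKM in DMSO and at 1225 and 1228 in 3C. The order of these genes was therefore opposite in the 2 groups. Of 11 T, B and NK cell markers, 10 did not pass the filter, and the remaining gene, Cd4, reached at most 0.557 CPM (counts scaled to a common library total) in the 4 libraries. In these bulk samples, fewer cells of a type and less RNA per cell cannot be told apart.

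Library totals were 65916573 to 68222063 estimated counts in the 4 libraries, and no library stood apart. The log2 CPM of all genes, which are no replicates of each other, correlated at Pearson's r 0.975 between the DMSO replicates, 0.976 between the 3C replicates and 0.951 to 0.953 between the groups. A count of up to 12 was treated as the floor of detection, which corresponds to 0.176 to 0.182 CPM. Such floors cover counting error only. Summed mitochondrial mRNA was 9411 and 8725 CPM in DMSO and 12160 and 11876 CPM in 3C.

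A gene was called when its log2 fold change passed 1 in size and its adjusted p was below 0.05, by edgeR's quasi-likelihood test with Benjamini-Hochberg adjustment. Of the 19135 genes, 1809 were called (9.45%), 1116 higher in 3C (5.83%) and 693 lower (3.62%). All 1809 had no overlap between the libraries of the groups, which held for 11739 of the genes tested (61.3%). The median log2 fold change over all genes tested was 0.009, which the scaling itself centres near 0, so fold changes are relative to the bulk of genes and a general shift could not be seen. The genes that rose were mostly scarce in DMSO, where 411 of the 1116 had a mean under 1 CPM, 426 had 1 to 10 CPM and 279 had at least 10 CPM. Of the 693 that fell, 419 had at least 10 CPM in DMSO, 117 of them at least 100. DMSO is the low group for rises and the high group for falls, so how genes were called fixes part of this difference. Averaged over the 4 libraries, the median level was 5.28 CPM for rises and 11.3 CPM for falls. Summed over genes, those called higher took up 22138 CPM in DMSO and 74918 CPM with the cocktail, and those called lower from 91458 to 34590 CPM. Fitted rises were also larger than fitted falls, with a log2 fold change above 2 in size for 514 of 1116 and 142 of 693. Of the 1116 rises 141, and of the 693 falls 36, were at or under the floor of detection in their low group. There the fitted fold change is no measure of size. By annotation, 1668 called genes were protein coding, and among 1760 long noncoding RNAs 55 rose and 32 fell.

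**Figure D1:**
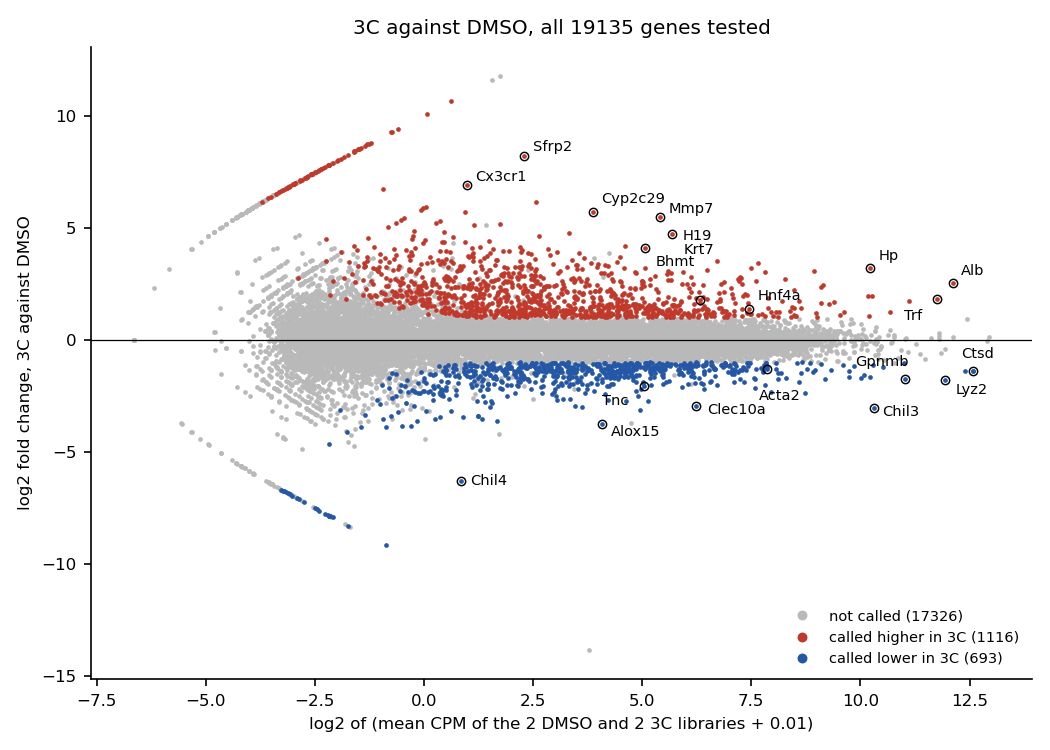
Each point is 1 of the 19135 genes tested, placed by its mean level over the 2 DMSO and 2 3C libraries (x, log2 of CPM + 0.01) and its log2 fold change in 3C against DMSO (y). Red marks the 1116 genes called higher, blue the 693 called lower and grey the rest, and the circled genes are described in the text. The straight diagonal edges on the left are genes listed at 0 in every library of a group, for which the fitted fold change is no measure of size.

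Among protein-coding genes that averaged 10 CPM or more, the 15 largest rises included liver enzymes, plasma proteins and Mmp7, a matrix metalloproteinase of epithelial cells. Cyp2c29 (chromosome 19, 39257849 to 39319157, GRCm39), a P450 of drug metabolism, was at 0.700 and 0.364 CPM in DMSO and at 31.9 and 25.8 CPM in 3C. The groups lay far apart, and the log2 fold change was 5.72 (SE 0.23, adjusted p 4.27e-06). Mmp7 (chromosome 9, 7692091 to 7699587) was at 1.41 and 2.25 CPM in DMSO and at 71.7 and 95.0 CPM in 3C, which is a rise of 5.48 on the log2 scale (SE 0.24). Mtarc1, a mitochondrial amidoxime reductase, rose by 4.77 on the log2 scale, from 0.849 and 0.531 to 19.8 and 18.9 CPM. The growth factor Igf2 rose by 4.19 and Bhmt, a methionine cycle enzyme of liver and kidney, by 4.12. The pheromone-binding protein Mup20 (3.87), Apoa2 (3.72), Cpn2 (3.64), Apof (3.58), Mug1 (3.54), plasminogen Plg (3.47), vitronectin Vtn (3.45) and Pck1 (3.42) followed. Spns2, which exports sphingosine-1-phosphate, and Avpr1a, a vasopressin receptor of hepatocytes, closed the 15 with 3.40 and 3.35. The calls of some of these rested on single libraries. Igf2 had an adjusted p of 0.124 without DMSO replicate 1 and of 0.13 without DMSO replicate 2, Bhmt of 0.055 without DMSO replicate 2, and Pck1 of 0.0734 and 0.0782 without 3C replicates 1 and 2. Igf2, Mug1, Mup20, Apoa2, Plg and Bhmt had 12.7% to 75.9% of their sequence words recur elsewhere in the transcriptome, so their reads are uncertain.

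The largest falls in the same abundance class were dominated by genes of macrophages. Chil3 (chromosome 3, 106054870 to 106074880), a chitinase-like protein of alternatively activated macrophages, was at 2252 and 2236 CPM in DMSO and at 240 and 319 CPM in 3C. The groups did not overlap, at a log2 fold change of -3.04 (SE 0.13, adjusted p 2.33e-06), and 27.7% of its sequence words occur in other genes. The lectin receptors Clec7a (-3.13) and Clec10a (-2.95) fell with it, Clec10a from 137 and 130 to 17.6 and 17.8 CPM. Fcna, a ficolin of macrophages, went from 701 and 713 to 126 and 152 CPM (-2.38), and Cd5l, a protein secreted by macrophages, from 340 and 478 to 77.8 and 88.7 CPM (-2.33). Ly6a (-3.0), the sodium-proton exchanger Slc9a4 (-2.96), the osteoclast proton pump subunit Atp6v0d2 (-2.74), leukotriene C4 synthase Ltc4s (-2.67), Ccdc148 (-2.53), Fndc1 (-2.41), the phosphodiesterase Pde2a (-2.35) and Bcat1 (-2.28), which starts the breakdown of branched-chain amino acids, fell by similar amounts. Alox15, a lipoxygenase, had the largest fitted fall (-3.75, SE 0.77), but its levels were uneven, 41.2 and 22.04 CPM in DMSO and 1.86 and 2.93 CPM in 3C. Its adjusted p of 0.0318 rose to between 0.092 and 0.23 when any 1 library of the 4 was left out, and to 0.115 with DESeq2.

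Noncoding and pseudogene transcripts that averaged 2 CPM or more moved by similar amounts. H19, the imprinted noncoding RNA beside Igf2, was at 3.86 and 3.43 CPM in DMSO and at 120 and 77.0 CPM in 3C (4.73, SE 0.51), and its adjusted p of 0.00661 became 0.0867 and 0.0879 without DMSO replicates 1 and 2. Mup-ps19 rose by 3.86, Gm830 by 2.42, 9130016M20Rik by 2.35 and 0610005C13Rik by 2.33, and the call of Gm830 was lost without 3C replicate 2, at an adjusted p of 0.0712. Falls were largest for Gm14461 (-2.71), Gvin3 (-2.66), Gm15270 (-2.37), Gm26542 (-2.10) and Gvin-ps2 (-2.06). Sequence words found in other genes made up 98.6% of Gvin-ps2, 89.8% of Mup-ps19, 45.6% of Gvin3, 23.1% of Gm15270 and 18.4% of 0610005C13Rik. The reads of these 5 are therefore uncertain. Gm26542 overlaps Ltc4s on chromosome 11, and since it is not stated whether counting used strand, reads of these genes cannot be told apart. This limit is not particular to the pair, since exons of 110 of the 225 named genes overlap a gene on the opposite strand.

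The plot of levels by library gives examples of each kind, with the 5C libraries beside them.

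**Figure D2:**
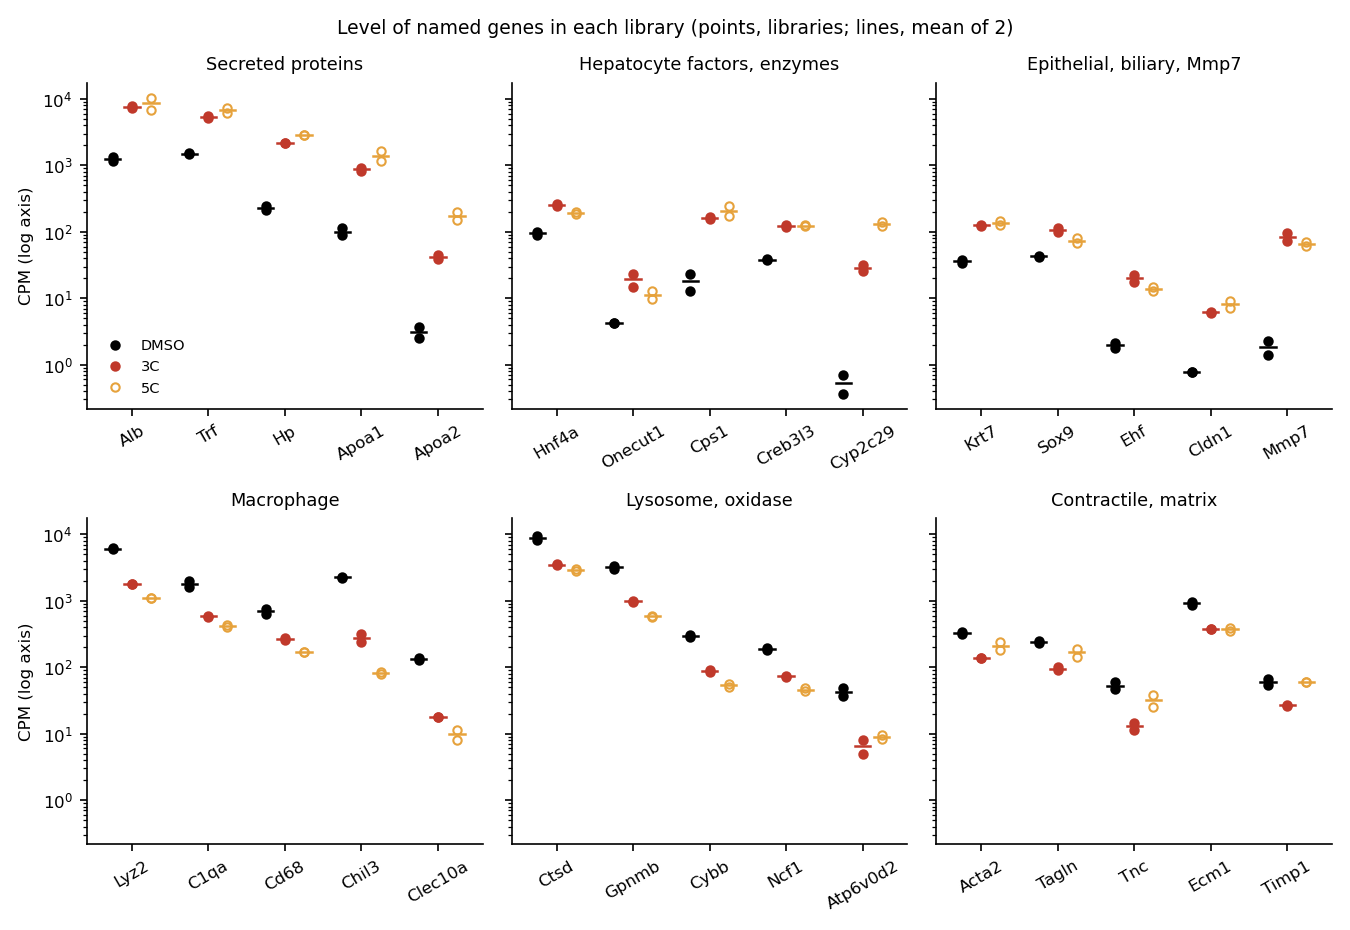
Level (CPM, log axis) of 30 genes in 6 panels, with each library as a point (black DMSO, red 3C, open orange 5C) and the mean of 2 as a line. In every gene shown the 3C points lie apart from the DMSO points, above them in the upper panels and below them in the lower panels, and Timp1 in 5C lies at its DMSO level.

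Promoters of called genes were searched for short motifs of factors tied to liver, macrophage and contractile genes. The promoter was taken as the 250 bases before the annotated start on GRCm39, and both strands were searched. HNF1 (GTTAATNAT) was held by 3.14% of 1113 promoters of genes called higher, by 0.289% of 692 promoters of genes called lower and by 0.609% of all 19054 promoters of tested genes. PU.1 (AGAGGAAG), named for the factor of the myeloid lineage encoded by Spi1, was held by 4.04% of the first, 8.38% of the second and 3.67% of all. AP-1 (TGANTCA) was held by 7.01%, 8.38% and 5.29% in the same order. FOXA (TGTTTAC) stood at 2.70%, 3.03% and 2.56%, HNF4A (CAAAGTCCA) at 0.809%, 0.578% and 0.367%, and the CArG box of SRF at 1.17%, 1.45% and 1.23%. These shares are descriptions, the letters of a match are not a measured binding site, and the motifs did not overlap in the promoters shown. The promoters of 44 named genes were read out, and 35 of these held none of the motifs. The promoters of 4 genes with large changes are shown with the matched letters in capitals, each read on the strand of its gene up to the base before the start. Plg carried an HNF1 match on the opposite strand beginning 43 bases before the start, Mmp7 and Atp6v0d2 an AP-1 match each at 63 bases, and Cd5l a PU.1 match on the opposite strand at 61 bases.
Plg (chr17:12597241-12597490, plus strand): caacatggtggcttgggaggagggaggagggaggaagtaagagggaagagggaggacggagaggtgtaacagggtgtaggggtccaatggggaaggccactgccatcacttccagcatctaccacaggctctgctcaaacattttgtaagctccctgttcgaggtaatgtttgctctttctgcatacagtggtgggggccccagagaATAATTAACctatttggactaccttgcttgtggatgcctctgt
Mmp7 (chr9:7691841-7692090, plus strand): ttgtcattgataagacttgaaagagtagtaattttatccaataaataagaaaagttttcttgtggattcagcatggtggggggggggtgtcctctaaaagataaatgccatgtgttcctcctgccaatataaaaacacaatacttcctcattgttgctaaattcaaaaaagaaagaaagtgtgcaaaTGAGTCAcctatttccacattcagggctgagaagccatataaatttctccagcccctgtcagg
Cd5l (chr3:87264932-87265181, plus strand): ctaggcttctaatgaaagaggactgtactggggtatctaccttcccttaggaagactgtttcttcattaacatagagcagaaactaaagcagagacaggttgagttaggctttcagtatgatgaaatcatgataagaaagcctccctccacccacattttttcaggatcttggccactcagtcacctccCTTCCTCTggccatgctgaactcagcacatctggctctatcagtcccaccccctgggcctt
Atp6v0d2 (chr4:19922615-19922864, minus strand): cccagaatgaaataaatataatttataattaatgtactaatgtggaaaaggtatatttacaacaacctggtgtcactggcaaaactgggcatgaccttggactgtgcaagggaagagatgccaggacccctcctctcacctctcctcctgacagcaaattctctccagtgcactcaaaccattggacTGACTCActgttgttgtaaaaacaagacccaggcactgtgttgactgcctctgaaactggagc

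**Figure D3:**
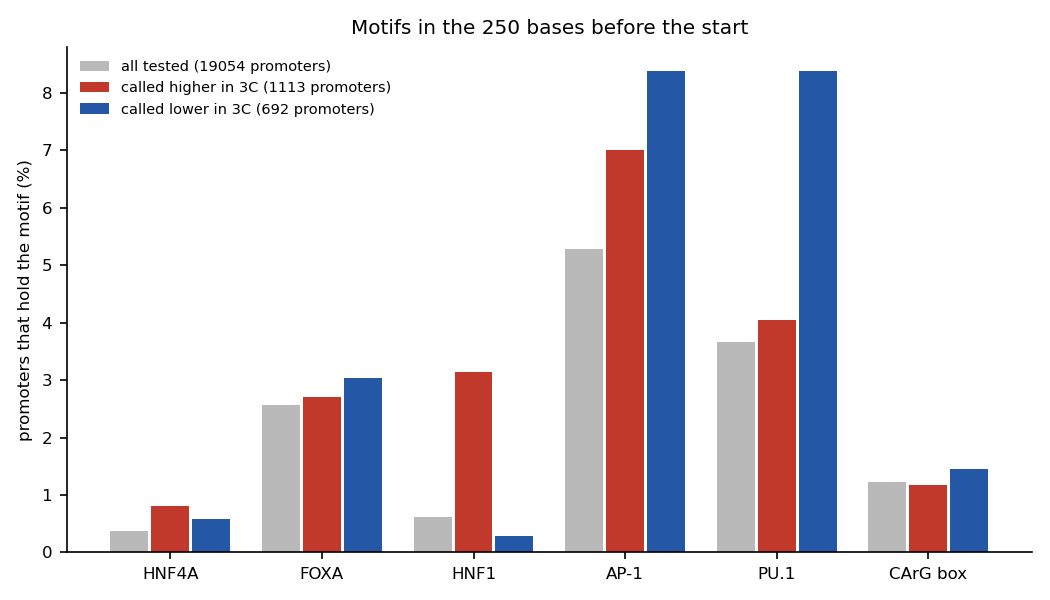
Share of promoters (y, percent) that hold each of 6 motifs (x), for all 19054 promoters of tested genes (grey), the 1113 of genes called higher (red) and the 692 of genes called lower (blue). The red bar of HNF1 stands at 3.14% against 0.609% for all, and the blue bar of PU.1 at 8.38% against 3.67% for all.

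Hepatocyte transcription factors were called higher in part. Beside this and every rise described below, the summed level of 25 macrophage markers went from 14278 and 15429 CPM in DMSO to 4977 and 4993 CPM in 3C, and the part of this shift in the rises was not tested. Of 26 tested, 12 were called higher and none lower, with a median log2 fold change of 0.77, and 24 had a positive value. Hnf4a (chromosome 2, 163348728 to 163414830), which maintains the mature hepatocyte program, was at 99.2 and 90.3 CPM in DMSO and at 260 and 247 CPM in 3C. The replicates were close together, and the log2 fold change was 1.39 (SE 0.07, adjusted p 3.48e-06). Creb3l3, a membrane-bound factor of lipid metabolism, went from 38.6 and 37.4 to 127 and 120 CPM (1.67), and Prox1, a homeobox factor of liver development, from 29.3 and 24.3 to 78.3 and 77.9 CPM (1.51). The largest rises in the group were those of Nr0b2 (2.19), which represses bile acid synthesis, and Onecut1 (2.15), whose reads are uncertain because 44.5% of its sequence words occur in other genes. Foxa2, a pioneer factor, was at 26.2 and 28.6 CPM in DMSO and at 33.6 and 27.2 CPM in 3C, with overlapping libraries, a log2 fold change of 0.12 and an adjusted p of 0.659.

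Secreted liver proteins rose in most of their members. Of 32 plasma carriers and protease inhibitors, 27 were called higher and none lower, at a median of 2.40 on the log2 scale, and their summed level went from 5860 and 5895 CPM to 24610 and 25824 CPM. Alb (chromosome 5, 90608647 to 90624696), the main carrier protein of plasma, was at 1357 and 1182 CPM in DMSO and at 7402 and 7769 CPM in 3C (2.55, SE 0.22, adjusted p 0.000436). Without DMSO replicate 2 the adjusted p of Alb was 0.0539 at a log2 fold change of 2.47. The iron carrier transferrin (Trf) rose by 1.83, from 1521 and 1464 to 5223 and 5614 CPM, and haptoglobin (Hp), which binds free hemoglobin, by 3.21, from 243 and 214 to 2138 and 2172 CPM. Fetuin-A (Ahsg) rose by 1.97, the vitamin D carrier Gc by 1.25 and kininogen (Kng1) by 3.19.

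Of 22 genes of apolipoproteins and lipoprotein assembly, 17 were called higher and 1 lower, at a median of 2.07. Their summed level moved less, from 9084 and 8786 to 10698 and 10847 CPM, since most of it was Apoe, which macrophages also make and which was not called (7782 and 7666 CPM in DMSO, 7536 and 7544 CPM in 3C) and is named after its values were seen. Apoa1 and Apoa2, the main proteins of high-density lipoprotein, went from 112 and 89.3 to 831 and 920 CPM and from 3.68 and 2.53 to 45.1 and 38.7 CPM. Apob, which carries very low density lipoprotein, went from 552 and 376 to 1133 and 1094 CPM (1.23, adjusted p 0.0171), and its call was lost without DMSO replicate 2, 3C replicate 1 or 3C replicate 2, at adjusted p-values of 0.0621 to 0.0815. The member called lower was Pltp, the phospholipid transfer protein, at -1.02 (181 and 183 CPM to 83.3 and 101 CPM), which was under the fold threshold without DMSO replicate 2 (-0.99) or 3C replicate 1 (-0.88).

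Complement genes of hepatocytes divided, with 13 of 19 called higher and 2 lower. C3, the central component, was at 1073 and 924 CPM in DMSO and at 3355 and 3452 CPM in 3C (1.74). C9, of the membrane attack complex, rose by 4.14 from 0.298 and 0.668 to 9.24 and 8.19 CPM. Mbl1, a mannose-binding lectin, was at the floor in DMSO and at least 15.7-fold higher in 3C. C4b moved the other way, from 2157 and 1948 to 872 and 917 CPM (-1.23), and 36.3% of its sequence words recur elsewhere, mostly in C4a.

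Of 22 coagulation and fibrinolysis genes, 18 were called higher and 1 lower, at a median of 2.13. The fibrinogen chains Fga and Fgb rose by 1.72 and 1.46, from 142 and 130 to 446 and 470 CPM and from 174 and 187 to 484 and 529 CPM. Hrg, a histidine-rich plasma protein, rose by 4.62 from 0.521 and 0.425 to 12.5 and 11.4 CPM, and Plg, whose promoter is shown above, from 3.50 and 3.46 to 37.4 and 41.4 CPM.

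Drug-metabolizing genes rose in number but stayed scarce in most cases. Of 35 tested genes, P450s of families 1 to 4 and their electron donor Por, 22 were called higher and none lower, at a median of 2.65. On the log2(FPKM + 1) scale, which understates the change of scarce genes, that median was 0.93. Their summed level went from 575 and 561 to 977 and 1001 CPM, of which Por, not called and named after its values were seen, made up 229 and 242 CPM in DMSO and 267 and 293 CPM in 3C. Cyp2d22 (44.6 and 42.3 to 103 and 120 CPM), Cyp2d10 (10.6 and 7.89 to 69.3 and 69.4 CPM) and Cyp2j5 (3.74 and 4.93 to 29.8 and 35.7 CPM) were among the more abundant of those called. Cyp1a2 and Cyp2e1, both of pericentral hepatocytes, rose by 2.04 and 2.65 but reached only 4.68 and 3.66 CPM and 3.35 and 2.08 CPM. Cyp2c37 and Cyp2c50 were listed at 0 in both DMSO libraries and were at least 6.50-fold and at least 3.95-fold higher than the floor in 3C.

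Conjugation enzymes, which make drugs water soluble, gave 20 of 33 called higher and none lower, at a median of 1.44. The glutathione transferases Gstm1 and Gsta3 went from 306 and 321 to 1161 and 890 CPM and from 122 and 128 to 366 and 323 CPM, and the sulfotransferase Sult1a1 from 81.8 and 88.0 to 217 and 241 CPM. Gstm1 had an adjusted p of 0.0506 without DMSO replicate 1. Of 8 carboxylesterases tested, 6 were called higher, and Ces2e, the most abundant, went from 7.36 and 6.25 to 24.6 and 27.4 CPM. In bile acid synthesis and transport, 14 of 27 genes were called higher, among them Cyp39a1 (59.1 and 56.8 to 165 and 152 CPM), the peroxisomal oxidase Acox2 (42.0 and 47.2 to 123 and 117 CPM) and the hydroxylase Cyp7b1 (1.51). Cyp7a1 and Cyp8b1, key enzymes of the classical pathway, did not pass the filter on low counts.

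In intermediary metabolism most genes of the liver-specific branches were called and none of the glycolytic enzymes shared by most cells. Of 38 genes of the urea cycle and amino acid catabolism, 28 were called higher and 1 lower. Cps1, which captures ammonia, was at 23.1 and 12.8 CPM in DMSO and at 165 and 157 CPM in 3C (3.13, SE 0.35). Gldc, which cleaves glycine, went from 67.3 and 65.1 to 214 and 210 CPM (1.65), and Hpd, of tyrosine breakdown, was at least 20.2-fold higher. Glutamine synthetase, Glul, was the member that fell, from 491 and 510 to 248 and 248 CPM (-1.05, SE 0.07).

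Of 16 genes of gluconeogenesis, glycogen and fructose use, 11 were called higher, at a median of 2.07. Of 18 glycolytic isozymes found in most cells none was called, at a median of 0.30, but 8 were higher and 5 lower at an adjusted p under 0.05, within -0.82 to 0.79. Pkm, the pyruvate kinase of most tissues other than liver, was at 694 and 689 CPM in DMSO and at 605 and 579 CPM in 3C, while Pklr, the liver form, had a log2 fold change of 1.06, which was 0.89 without DMSO replicate 1.

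Genes grouped by the zone of the liver lobule in which they are highest were uneven. Of 15 periportal genes 12 were called higher, at a median of 2.62 (1.12 on the log2(FPKM + 1) scale), among them Hsd17b13, a lipid droplet protein (41.3 and 40.4 to 251 and 264 CPM). Of 14 pericentral genes 5 were called higher and 1, Glul, lower, at a median of 0.91 (0.77 on that scale). Axin2, a target of WNT signaling in that list, was at 6.33 and 3.26 CPM in DMSO and at 13.4 and 8.82 CPM in 3C, and its adjusted p of 0.0439 was 0.0957 without DMSO replicate 2 and 0.214 without 3C replicate 1. The difference between the zones was not tested.

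Fatty acid oxidation and PPARA target genes were higher in 27 of 28 cases, 25 of them at an adjusted p under 0.05, but 11 passed the fold threshold and 1 was called lower. Fabp1, the liver fatty acid binding protein, rose by 3.91 but reached only 8.88 and 8.75 CPM.

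The genes that encode the compounds' targets moved little. Acly, which encodes ATP citrate lyase, was at 224 and 242 CPM in DMSO and at 250 and 233 CPM in 3C, with overlapping libraries and a log2 fold change of 0.02 (adjusted p 0.894). Its sterol and fatty acid synthesis list had 3 of 34 genes called higher, beside 5.83% of all genes tested. At an adjusted p under 0.05, 19 of the list were higher, beside 2434 of all 19135. The list median was 0.34, and 0.30 to 0.44 with single libraries left out. Over all genes 9.45% were called in either direction, which stands beside the list counts of this and the next 2 paragraphs. Slc27a2, the fatty acyl-CoA synthetase known to activate ETC-1002 in liver, was called higher. It was at 12.8 and 9.30 CPM in DMSO and at 90.5 and 90.4 CPM in 3C (3.00, SE 0.16, adjusted p 1.56e-05), and 12.5% of its sequence words occur in other genes. The AMPK catalytic subunits Prkaa1 and Prkaa2 had log2 fold changes of -0.21 (adjusted p 0.105) and 0.57 (0.00708), and none of 7 AMPK genes was called.

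Protein kinase D genes were not called. Prkd1 had a log2 fold change of -0.08 (adjusted p 0.874), Prkd2 of 0.09 (0.603) and Prkd3 of 0.23 (0.0411), the last at 105 and 95.9 CPM in DMSO and 122 and 119 CPM in 3C. In the list of protein kinase D, class IIa histone deacetylases and MEF2 factors, 1 of 10 genes was called, near the share over all genes. It was Hdac9, at -1.06 (14.5 and 14.8 CPM to 6.22 and 8.12 CPM), and without 3C replicate 1 its value was -0.88. The kinases Rock1 (-0.10, adjusted p 0.432) and Rock2 (-0.29, adjusted p 0.0349) were not called.

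Among 35 genes of ROCK, actomyosin and SRF targets, 4 were called lower and 2 higher, with 13 lower at an adjusted p under 0.05 and a median of -0.17. Those that fell were smooth muscle genes. Acta2 (chromosome 19, 34217737 to 34232990), the smooth muscle actin of myofibroblasts, was at 336 and 321 CPM in DMSO and at 138 in each 3C library (-1.29, SE 0.11, adjusted p 3.77e-05). Tagln, an actin-binding protein, went from 244 and 233 to 100 and 90.7 CPM (-1.36), with 47.6% of its words in other genes, and Actg2 from 11.8 and 12.5 to 4.24 and 3.72 CPM (-1.64). Myh10, a nonmuscle myosin, moved the other way, from 119 and 84.7 to 255 and 216 CPM (1.18), and stood at 0.97 without DMSO replicate 2. None of 10 tested targets of YAP and TEAD was called, and Ccn2, the most used of them, was at 876 and 907 CPM in DMSO and at 837 and 901 CPM in 3C.

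Epithelial and biliary genes rose beside the hepatocyte genes. Of 22 biliary and progenitor markers, all had a positive log2 fold change and 15 were called higher, at a median of 1.28. Krt7, a keratin of bile duct cells, was at 37.6 and 34.1 CPM in DMSO and at 124 and 125 CPM in 3C (1.77, SE 0.08), and Sox9, a duct and progenitor factor, went from 42.0 and 43.8 to 100 and 113 CPM (1.28). The epithelial factor Ehf rose by 3.34, from 1.76 and 2.15 to 17.7 and 22.8 CPM. Of 14 genes of epithelial junctions and keratins, 13 were higher at an adjusted p under 0.05 and 4 were called, led by the claudin Cldn1 (0.774 in each DMSO library, 6.25 and 6.05 CPM in 3C). The 4 calls became 2 without 3C replicate 2 and 7 without DMSO replicate 2. In the Notch pathway, which guides bile duct fate, 5 of 12 genes were called higher, among them the targets Hes1 (24.7 and 24.97 to 64.1 and 61.8 CPM), Heyl (3.80) and Nrarp (2.84, with 82.6% of its words in other genes).

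**Figure D4:**
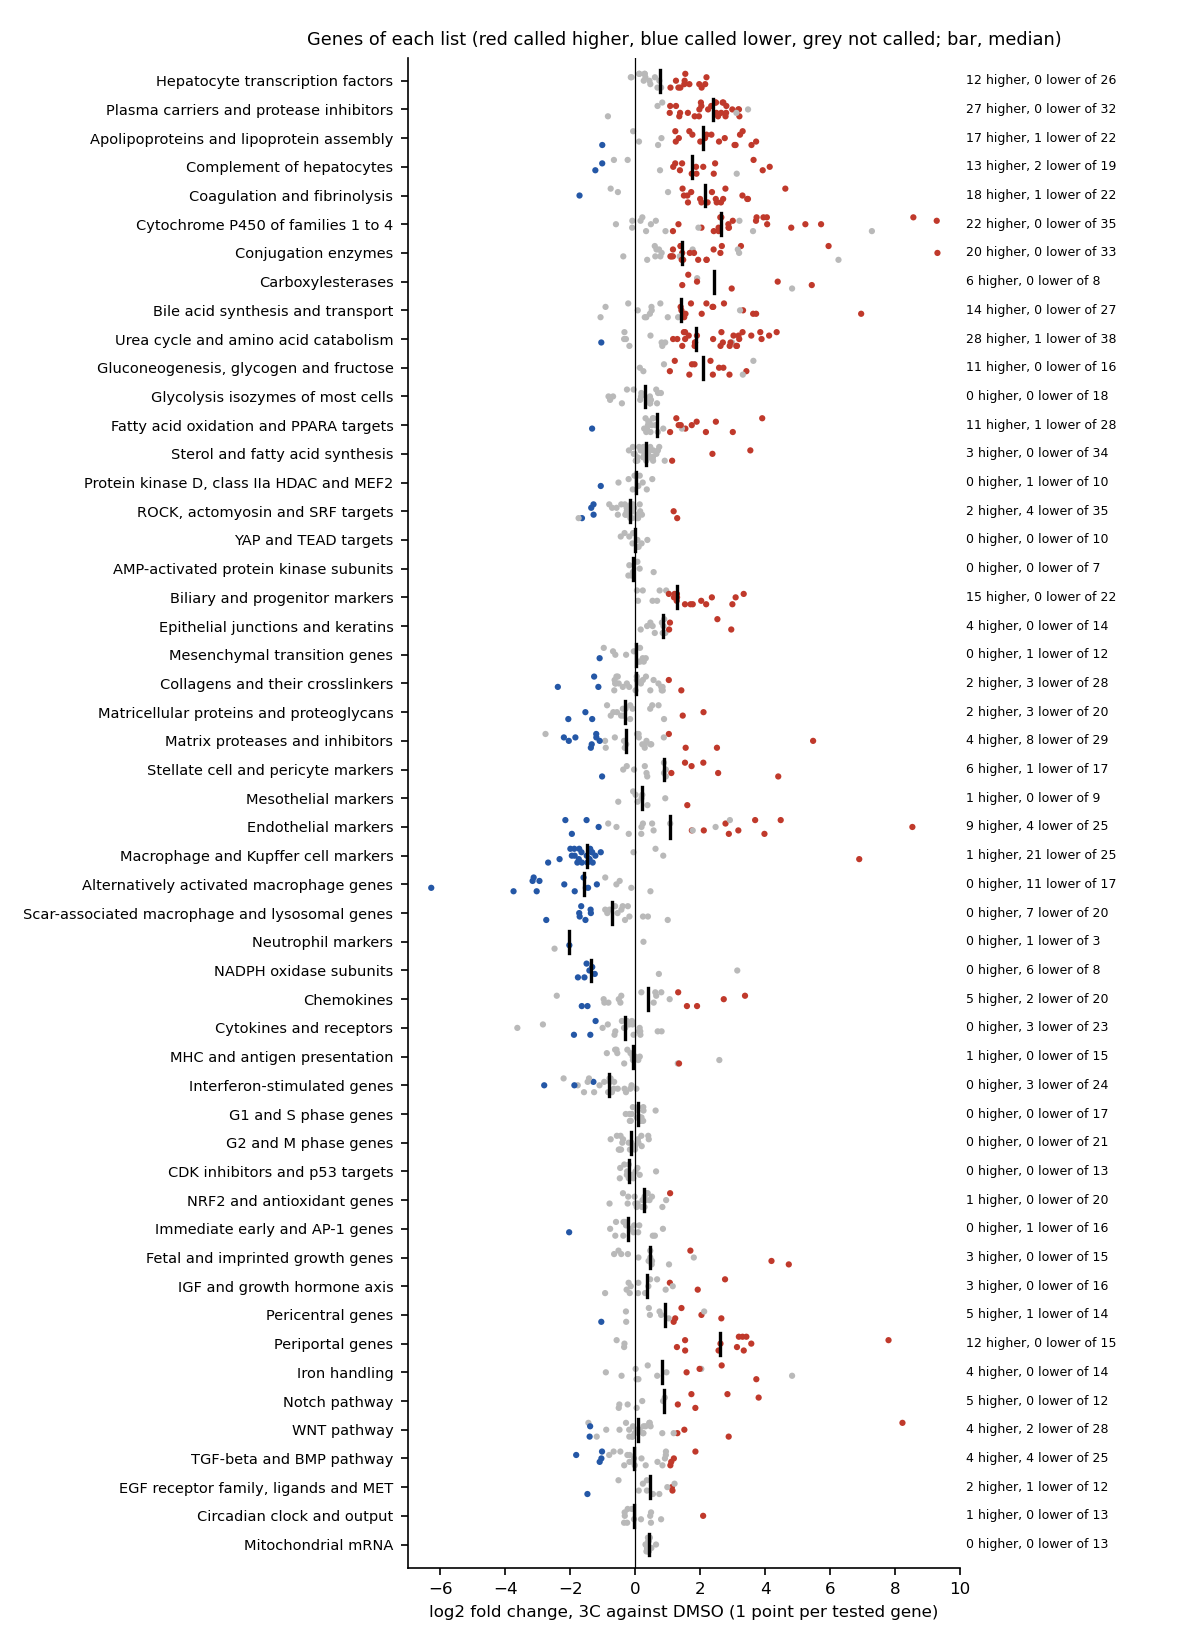
Log2 fold change in 3C against DMSO (x) of each tested gene in the lists with at least 3 tested genes (y), with genes called higher in red, lower in blue and not called in grey, the median as a bar and the counts at the right. The medians of the secreted protein and P450 lists lie between 1.74 and 2.65, those of the macrophage, lysosomal and oxidase lists lie below 0, and the cell cycle and YAP lists hold no called gene.

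Called genes were a minority of the mesenchymal lists, beside 9.45% called over all genes tested. The list of mesenchymal transition lay near that share, at a median log2 fold change of 0.02. Of 12 genes of mesenchymal transition 1 was called, Zeb2, a repressor of epithelial genes that is also expressed in macrophages, from 170 and 158 to 75.4 and 81.4 CPM (-1.10), and 2 were called without DMSO replicate 2 or 3C replicate 1. Of 28 collagens and crosslinking enzymes, 3 were called lower and 2 higher, at a median of 0.03, and the 5 calls became 3 without DMSO replicate 1. Col28a1 went from 6.45 and 7.69 to 1.34 and 1.42 CPM (-2.39) and Col12a1 from 171 and 138 to 70.0 and 73.6 CPM (-1.14, and -0.99 without DMSO replicate 1). Col18a1, the basement membrane collagen that gives rise to endostatin, rose from 212 and 216 to 592 and 578 CPM (1.42). Among 20 matricellular proteins and proteoglycans, 3 fell and 2 rose, and the 5 calls became 3 without DMSO replicate 2, 3C replicate 1 or 3C replicate 2. Tenascin C (Tnc) went from 59.0 and 46.6 to 11.5 and 14.3 CPM (-2.06), Ecm1 from 966 and 864 to 371 and 374 CPM (-1.33), and elastin (Eln) from 3.75 and 2.82 to 13.2 and 15.6 CPM (2.10).

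Matrix proteases and their inhibitors divided, with 8 of 29 called lower and 4 higher. Timp1, a metalloproteinase inhibitor, was at 54.6 and 66.0 CPM in DMSO and at 26.5 and 27.1 CPM in 3C (-1.20, SE 0.10). Most of the falls came from metalloproteinase genes that lie next to each other on chromosome 9, a set singled out after its values were seen. Of 10 annotated genes in this cluster, 7 were tested. In order of position, Mmp13 (-1.84), Mmp12 (-2.05), Mmp3 (-1.34), Mmp10 (-1.37), Mmp8 (-1.20) and Mmp27 (-2.20) were called lower between 7272514 and 7581891. Mmp27 was at 52.6 and 49.9 CPM in DMSO and at 10.04 and 12.7 CPM in 3C. Mmp7, the next tested metalloproteinase gene, from 7692091, was called higher at 5.48, which made it the exception in the cluster. Mmp1a, Mmp1b and Mmp20, which lie among these, did not pass the filter.

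**Figure D5:**
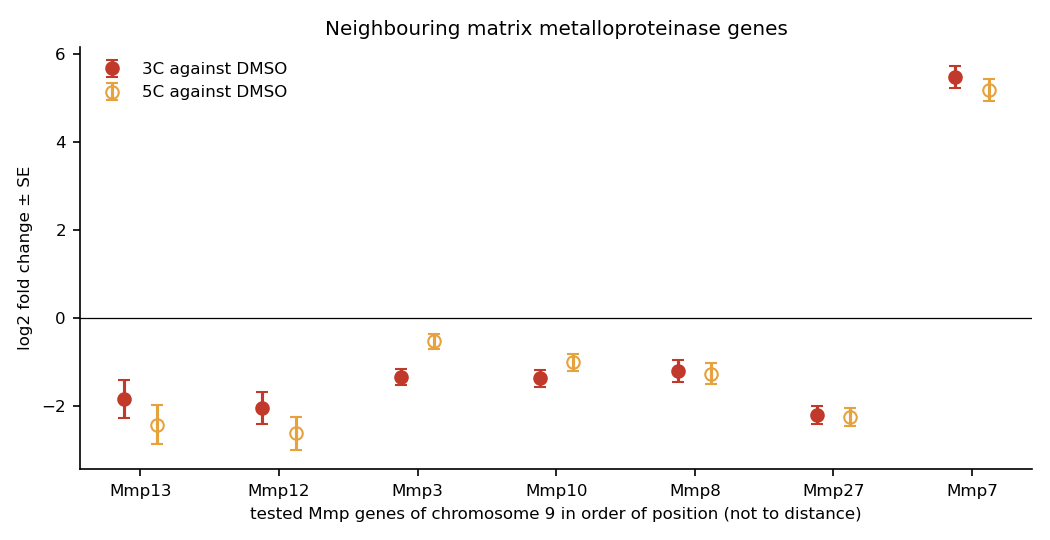
Log2 fold change (y, bars are ± SE) of the 7 tested metalloproteinase genes of chromosome 9 in order of position (x, not to distance), for 3C against DMSO (filled) and 5C against DMSO (open), which share the DMSO libraries. In 3C the first 6 genes lie between -2.20 and -1.20 and Mmp7 lies at 5.48.

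Macrophage genes fell as a group. Of 25 tested macrophage and Kupffer cell markers, 21 were called lower and 1 higher, at a median of -1.48, with the summed levels given above. Lyz2 (chromosome 10, 117111557 to 117118346) was at 6024 and 6137 CPM in DMSO and at 1821 and 1789 CPM in 3C (-1.78, SE 0.07, adjusted p 1.48e-06). The complement component C1q chains C1qa, C1qb and C1qc fell by 1.66, 1.39 and 1.64 on the log2 scale, C1qa from 1641 and 1962 to 575 and 594 CPM. Cd68, a lysosomal glycoprotein of macrophages, went from 626 and 766 to 278 and 257 CPM (-1.41), and Timd4, a receptor of resident Kupffer cells, from 1.64 and 2.32 to 0.453 and 0.176 CPM (-2.68). Cx3cr1, the fractalkine receptor of monocytes, was the member called higher, at 0 and 0.0607 CPM in DMSO and at 2.57 and 5.22 CPM in 3C, at least 21.6-fold.

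Genes of alternative activation fell too, with 11 of 17 tested called lower, none higher and a median of -1.60. Besides Chil3 and the lectin receptors, the mannose receptor Mrc1 went from 1249 and 1303 to 563 and 585 CPM (-1.18) and the chemokine Ccl6 from 527 and 679 to 184 and 155 CPM (-1.87). Chil4 was under the floor in 3C, at least 19.9-fold lower, and shares 20.4% of its sequence words with other genes. Lysosomal and scar-associated macrophage genes gave 7 of 20 called lower and 14 lower at an adjusted p under 0.05. Gpnmb, a glycoprotein of lipid-laden and scar-associated macrophages, went from 3051 and 3293 to 966 and 994 CPM (-1.73). The cathepsins Ctsd (8244 and 9417 to 3422 and 3537 CPM), Ctsb (-1.37) and Ctss (-1.71), the sphingolipid activator Psap (-1.40) and the pore-forming protein Mpeg1 (-1.56) fell too.

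Of 8 tested NADPH oxidase subunits, 6 were called lower and none higher. All 6 belong to the phagocyte oxidase or its regulation. The catalytic subunit Cybb went from 281 and 308 to 92.1 and 85.1 CPM (-1.77), and the partners Cyba (-1.25), Ncf1 (-1.41, 198 and 182 to 74.5 and 71.0 CPM) and the GTPase Rac2 (-1.57) fell by similar amounts. Of 3 neutrophil genes tested, Csf3r, a growth factor receptor of that lineage, was called lower, from 8.37 and 5.54 to 1.27 and 2.20 CPM (-2.03).

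Other nonparenchymal lists were less uniform than the macrophage list. Of 17 stellate cell and pericyte markers, 6 were called higher and 1 lower. The list leaned upward, with 13 positive log2 fold changes and a median of 0.88. Its summed level went from 431 and 427 to 698 and 690 CPM. Colec11 rose by 2.55, from 1.74 and 1.64 to 11.4 and 8.87 CPM. Lrat, which stores retinol as ester, went from 6.92 and 8.01 to 30.8 and 34.4 CPM (2.10), and Notch3, a receptor of pericytes, from 18.9 and 18.4 to 57.1 and 52.9 CPM (1.53). Des, the muscle-type filament protein desmin, went from 83.2 and 99.4 to 41.7 and 50.2 CPM (-1.02, but -0.87 without DMSO replicate 2 and -0.89 without 3C replicate 1). Of 25 endothelial markers, 9 were called higher and 4 lower, and the 13 calls became 8 without DMSO replicate 1. The genes that fell were abundant, such as Lyve1 (309 and 319 to 66.1 and 78.1 CPM, -2.15) and Stab1 (1970 and 1462 to 823 and 780 CPM, -1.13, or -0.91 without DMSO replicate 1), and both are also known from macrophages. Those that rose were scarce, such as the endothelial factors Sox18, at least 10.6-fold higher, and Erg, listed at 0 in DMSO and at 0.423 and 0.967 CPM in 3C. Of 9 mesothelial markers, 1 was called, Lrrn4 (46.2 and 24.8 to 129 and 90.9 CPM), at an adjusted p of 0.0428 that became 0.159 and 0.0817 without 3C replicates 1 and 2.

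Inflammatory mediators went in both directions. Of 20 chemokines, 5 were called higher and 2 lower. The neutrophil attractants Cxcl1 and Cxcl5 went from 17.3 and 20.3 to 56.9 and 58.8 CPM (1.59) and from 1.21 and 1.47 to 11.9 and 16.6 CPM (3.38), the monocyte attractant Ccl2 from 32.0 and 37.5 to 135 and 131 CPM (1.90), and Ccl20 from 0.655 and 1.64 to 7.04 and 8.52 CPM (2.72). Among 23 cytokines and receptors, 3 were called lower, the interleukin Il1a (-1.89), the receptor chain Csf2rb (-1.39) and the endotoxin receptor Tlr4 (-1.22, 56.0 and 55.0 to 24.7 and 23.9 CPM). Interferon-stimulated genes were lower in 23 of 24 cases, but 3 were called, Oas2, Mx1 and Cmpk2. Mx1 was at 2.03 and 8.25 CPM in DMSO and at 1.01 and 0.498 CPM in 3C, with DMSO libraries that lay far apart. Its adjusted p of 0.0467 became 0.185 without DMSO replicate 2, 0.146 without 3C replicate 1 and 0.266 without 3C replicate 2. That of Cmpk2 (-1.88) became 0.0518, 0.0688 and 0.181 in the same order, and Oas2 (-1.29) stood at -0.99 without DMSO replicate 2 and at -0.98 without 3C replicate 2. The list rested on single libraries. Of the 24, none was called without DMSO replicate 2 or without 3C replicate 2, 5 without 3C replicate 1 and 13 without DMSO replicate 1, and the list median of -0.81 ranged from -0.25 without DMSO replicate 2 to -1.30 without 3C replicate 1. Of 15 genes of antigen presentation, 1 was called, Cd74, the invariant chain (1.35, 3.72 and 3.22 to 6.69 and 11.3 CPM), with a log2 fold change of 0.91 without 3C replicate 2.

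Proliferation and cell stress lists held few calls, beside 9.45% called over all genes tested. At that share a list of this size would hold few calls too, so the count of a single list says little. None of 17 genes of G1 and S phase, of 21 genes of G2 and M phase or of 13 CDK inhibitors and p53 targets was called. Mki67, a marker of cycling cells, was at 14.6 and 11.6 CPM in DMSO and at 10.9 and 7.97 CPM in 3C (-0.51, SE 0.21, adjusted p 0.113), and the cyclin Ccnd1 at 211 and 276 CPM and at 283 and 278 CPM (0.17, adjusted p 0.444). Of 20 NRF2 and antioxidant genes, 1 was called, the oxidative stress gene Osgin1 (141 and 146 to 323 and 294 CPM), and of 16 immediate early genes 1, Fosb (10.7 and 10.3 to 2.22 and 3.02 CPM, -2.04), or 2 without DMSO replicate 2.

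Signaling lists held single genes of large change. The BMP-binding protein Bmper fell from 80.5 and 72.4 to 21.2 and 23.1 CPM (-1.82, SE 0.08), while the BMP targets Id1 (33.3 and 30.5 to 119 and 117 CPM) and Id3 (1.11) rose, in a list of 25 TGF-beta and BMP genes with 4 called in each direction. In the WNT pathway 4 of 28 genes were called higher and 2 lower, among them the ligand Wnt7b (1.15 and 1.14 to 7.58 and 9.59 CPM) and the secreted antagonist Sfrp2, at least 54.3-fold higher at 10.9 and 8.72 CPM. The EGF receptor ligand Ereg fell from 28.3 and 29.0 to 9.84 and 11.2 CPM (-1.47), while the receptor Erbb3 rose from 24.9 and 23.4 to 54.7 and 53.1 CPM (1.13). In iron handling 4 of 14 genes were called higher. The sensor Tfr2 (30.3 and 26.5 to 85.1 and 88.4 CPM), the protease Tmprss6 (15.2 and 11.8 to 87.2 and 87.0 CPM) and the ferroxidase ceruloplasmin, Cp (469 and 455 to 1845 and 1884 CPM), rose, and hepcidin (Hamp), the hormone that limits iron export, rose by 3.73 but reached only 4.83 and 5.35 CPM. In the fetal and imprinted list, Gpc3, a fetal liver proteoglycan, rose with Igf2 and H19 (59.9 and 36.9 to 161 and 159 CPM). The output factor Hlf (2.09) was the 1 call among 13 clock genes.

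Called genes also lay in runs along the chromosomes. These runs were sought after the values had been seen and are given as descriptions. Among tested genes in order of position, 13 runs of at least 4 neighbours were called in the same direction, 8 higher and 5 lower. The Alb run on chromosome 5 (90608647 to 90748912) held Alb, Afp, Afm and Albfm1 with a median of 2.86. Albfm1 was listed at 0 in both DMSO libraries and at 0.181 and 0.132 CPM in 3C, at or under the floor. Its fold change is no measure of size, it raises that median, and without it the run would have been too short to count. A run on chromosome 3 (82799886 to 82957170) held Lrat and the fibrinogen genes Fgg, Fga and Fgb (1.88). On chromosome 4 (115343397 to 115504999), Cyp4a14, Cyp4a10, Cyp4a31, Cyp4a32 and Cyp4b1, which oxidize fatty acids, had a median of 3.74. That was the value of Cyp4a14 (SE 0.91), which was at 0.208 and 0 CPM in DMSO, near the floor. Cyp4a10 (0.372 and 0.288 CPM), Cyp4a31 (0.625 and 0.273 CPM) and Cyp4a32 (0.253 and 0.106 CPM) were also scarce there. Cyp4b1, at 4.23 and 3.91 CPM in DMSO, rose by 1.16. The longest run was of 8 Cd300 genes, immune receptors of myeloid cells, on chromosome 11 (114768840 to 114939235), all called lower with a median of -1.48. Cd244a, Ly9, Slamf7 and Cd48, of a second family of immune receptors, formed a run on chromosome 1 with a median of -1.49. Neighbours in such families are related in sequence, so their counts are not independent.

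The 5C libraries, which had salidroside and forskolin added to the same 3 compounds, showed which of these changes went further. Between 5C and 3C, 576 of the 19135 genes were called (3.01%). Several of the largest rises in 3C were higher again in 5C. Cyp2c29 was 2.24 higher on the log2 scale (adjusted p 0.000313), Apoa2 2.11 (0.0014), Plg 2.05 (0.000896), Bhmt 2.05 (0.0249) and C9 2.60 (0.00034). Alb, Mmp7, Igf2 and H19 were not called, at log2 fold changes of 0.23 (SE 0.20), -0.30 (SE 0.19), -0.33 (SE 0.49) and 0.23 (SE 0.41). Among the falls, Chil3 was lower again in 5C by -1.71 (0.000258), while Bmper (1.70, 6.63e-05), Pde2a (1.53, 0.00061), Tnc (1.35, 0.0128) and Timp1 (1.21, 0.000273) were higher in 5C than in 3C. The chemokines Ccl20 (-2.38, 0.0059) and Cxcl5 (-1.73, 0.00167), which rose in 3C, were lower in 5C than in 3C. Of 25 macrophage markers 1 was called between the cocktails and of 8 oxidase subunits none, yet the summed macrophage markers were at 3430 and 3331 CPM in 5C. Several were lower again by less than the fold threshold, such as Lyz2 (-0.66, adjusted p 0.000575), Cd68 (-0.58, 0.00631), C1qa (-0.42, 0.0188) and Cybb (-0.68, 0.00144).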

How the data were processed

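RNA-seq of 6 libraries was used, 2 each of DMSO, 3C and 5C, grouped by the sample labels. The authors deposited a table of estimated counts per gene, whole numbers aligned to GRCm39, and a table of FPKM values computed by the authors. The submitters' processing notes name Subread, featureCounts and DESeq2 without versions, and the strand setting and annotation release are not given in the sources used here. Low values of the counts were in excess at multiples of 4, so 1 fragment was taken as 4 units and the floor of 3 fragments as 12 units.

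Counts were normalised by TMM and tested with edgeR 4.0.16 (R 4.3.3; quasi-likelihood F test, robust, filterByExpr) in 1 fit of all 6 libraries, with Benjamini-Hochberg adjustment over 19135 genes. SE is the absolute log2 fold change divided by the square root of F. CPM is the count scaled to the library total. Library totals were 65916573 to 69245895. Alternatives used DESeq2 1.42.0 and limma 3.58.1 (FPKM on the log2(value + 1) scale, or with 0.1). The tests were also tried on simulated data, with means and dispersions taken from the fit of these data. Python 3.11.15, pandas 2.3.3, matplotlib 3.10.9 and bedtools 2.31.1 were used for the rest, with the GENCODE annotation of GRCm39, which matched 19054 of the tested genes. Shared sequence is the percent of a gene's 50-base words found in another gene. It was at least 10% in 68 of 225 named genes, and not all of these are marked where they are named. Among those not marked are Pde2a (76.4%), Pkm (64.3%) and Ccnd1 (59.4%).

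The genes named were the 15 largest rises and falls among called protein-coding genes of at least 10 CPM without overlap between replicates, 5 of each among other types at 2 CPM or more, in each list up to 3 called genes of highest level and 2 of largest fold (2 of highest level where none was called), the genes of the compounds' targets, 6 genes discussed by the study, and the 20 largest CPM changes. The comparison, lists and rules were chosen with earlier results of these data known. No column of per-sample values was left unused. Some items are not reported here.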

Additional observations from a re-analysis of the deposited data

Results flagged for a closer look

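Genes are given here whose log2 fold changes against DMSO had opposite signs in 3C and 5C and whose difference between 5C and 3C passed edgeR's test. The 2 comparisons share the DMSO libraries. Timp1, a metalloproteinase inhibitor, differed by 1.21 (adjusted p 0.000273), at -1.20 in 3C and 0.01 in 5C. Foxa2, a hepatocyte pioneer factor, differed by -1.18 (adjusted p 0.00185), at 0.12 in 3C and -1.06 in 5C. The cyclin Ccnd1 differed by -0.96 (adjusted p 0.00411), at 0.17 in 3C and -0.79 in 5C. The p53 target Trp53inp1 differed by -0.83 (adjusted p 0.000258), at 0.07 in 3C and -0.76 in 5C. The receptor kinase Axl differed by 0.46 (adjusted p 0.00328), at -0.33 in 3C and 0.12 in 5C. The 3C values of Foxa2, Ccnd1 and Trp53inp1 had adjusted p-values of 0.659, 0.444 and 0.553, so their sign in 3C is not established. The 5C values of Timp1 and Axl had adjusted p-values of 0.961 and 0.225, so their sign in 5C is not established either, and no gene here is shown to move in opposite directions.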

How the results depend on the processing

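The 1809 calls became 1809 with RLE and 1817 with upper-quartile normalisation, 1770 without the filter, 1669 at 10 counts in every library, 1978 with DESeq2, 1768 with 4 libraries, 1584 on log2(FPKM + 0.1) and 1831 with counts divided by 4, the last chosen after seeing the data. Single libraries left out gave 1535 to 1784. Other thresholds and scales moved the counts by over 1.5 times. Adjusted p alone gave 4689 (2434 higher, 2255 lower), a test against a log2 fold change of 1 gave 771 (542 and 229), a fold threshold of 0.5 gave 3146 (1794 and 1352), limma on log2(FPKM + 1) gave 961 (583 and 378), and the same without the filter 855 (516 and 339). The cause was not tested. Between 5C and 3C, the 576 calls ranged from 381 to 485 with single libraries left out, the lowest without 5C replicate 2.

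The labels do not say whether equal replicate numbers pair the samples. Deviations of replicate 1 from its group mean correlated over genes at r -0.03 between DMSO and 3C. With 2 libraries a group, this value cannot settle whether libraries share an animal or a culture. A fit with the replicate block gave 1737 calls, and 536 between 5C and 3C.

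Of 201 called named genes, 125 kept their call in every alternative that tested them, and 0 changed sign. A gene that an alternative filtered out was not counted as a loss. Signs changed only in genes not called. With single libraries left out, the log2 fold change ranged from -0.0483 to 0.0955 for Acly, from -0.0202 to 0.396 for Ccnd1, from -0.25 to 7.58 for Cd4, from -0.0409 to 0.259 for Foxa2, from -0.363 to 0.287 for Prkd1 and from -0.084 to 0.0127 for Top2a. Stk11 was 0.073 on log2(FPKM + 1), with and without the filter, and 0.0749 on log2(FPKM + 0.1). On log2(FPKM + 1), medians of lists with many scarce genes were smaller by over 1.5 times, among them carboxylesterases (2.44 to 0.97), bile acid genes (1.42 to 0.68), endothelial markers (1.07 to 0.23) and Notch genes (0.88 to 0.41). With 2 libraries a group, the spread rests on 3 residual degrees of freedom over all 6.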

Other observations

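Some genes were present in single libraries of a group, and were chosen after their values were seen. Gm49450 was at 55.3 CPM in DMSO replicate 1 and 68.6 CPM in 5C replicate 1 and was listed at 0 in the other 4 libraries. Gm43738 was at 13.4 CPM in 3C replicate 2 and 13.9 CPM in 5C replicate 2 and at 0 elsewhere. Ugt1a2, a glucuronosyltransferase, was at 0.283 CPM and 0 in DMSO and at 0 and 10.4 CPM in 3C. None of these was called.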
